A study of Mus musculus with 6 samples.

Results

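This is a description of the ribosome densities in the Ribo-seq library labelled heart, set against those of the other 5 libraries of a series of 6 mouse tissues. The library was chosen by its label alone, and no measured value entered the choice. It is 1 of the 6 libraries, and 13476 of the 18437 mRNAs listed in any library, those with a mean of at least 10 reads per library, were compared. Ribo-seq sequences the mRNA fragments that translating ribosomes protect from RNase. A read on a coding sequence (CDS) is taken here, without a test, to stand for a ribosome on that mRNA. The value is the RPKM, which counts the reads on a CDS scaled by its length in kilobases and by the total of reads on all CDSs of the library. The comparison is the difference between log2(RPKM + 1) in the heart library and the mean of log2(RPKM + 1) over the libraries labelled brain, colon, kidney, lung and small intestine, and every difference below is on this scale.

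All 6 libraries came from wild-type C57BL/6J mice aged 4 weeks with no treatment, and they differ in the tissue named on the label. Fresh tissue was lysed without a sort of cells, in the presence of cycloheximide, which holds ribosomes on the mRNA. Which chambers the heart sample held is not given. The number of animals behind a library is not stated in the labels. Since each tissue has 1 library, replicate error is unknown, no test was made, and a difference here is one between these libraries. mRNAs with a difference of at least 2, a 4-fold higher density, are called enriched in the heart library and those with a difference of -2 or less depleted.

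The heart wall is built of cardiomyocytes, whose myofibrils shorten when myosin of the thick filament pulls on actin of the thin filament. Calcium released from the sarcoplasmic reticulum starts each beat through the troponin complex, and its return to the reticulum ends it. Beating without pause needs a steady supply of ATP, which cardiomyocytes draw mainly from fatty acids burned in densely packed mitochondria. Endothelial cells, fibroblasts, mural cells and macrophages lie between the cardiomyocytes.

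The heart library held 8183035 reads on CDSs, within the range of 4504853 to 10635031 over the 6 libraries, and 14670 mRNAs had reads in it. The 4 markers of the label were highest there. Myh6, the alpha myosin heavy chain, had 6616 RPKM in the heart library and 0.712, 41.3, 7.58, 77.1 and 4.41 RPKM in those labelled brain, colon, kidney, lung and small intestine. Tnnt2, cardiac troponin T, had 20788 RPKM in the heart and 7.26, 105, 20.8, 193 and 13.3 RPKM in the others, in the same order. The myosin light chain Myl2 had 17347 RPKM in the heart and 3.03, 113, 23.5, 3.43 and 7.18 RPKM in the others, and Mb, myoglobin, 62856 RPKM in the heart and 12.2, 315, 47.1, 93.5 and 19.3 RPKM in the others. In these 4 mRNAs the heart library lay above every other library by at least 85.8-fold. The lung epithelium list took 5.7% of the reads under its own label and at most 0.401% elsewhere. The markers of the other 4 tissues went against the labels. Reads on the brain list made up 0.0131% under the label brain and 2.37% under the label small intestine. For the kidney tubule list these shares were 1.38% under kidney and 8.85% under colon. For the intestinal list they were 12% under brain, 8.58% under kidney, 0.144% under small intestine and 0.0888% under colon. The same list took 0.11% of the heart reads. An exchange of labels among these libraries leaves the mean over the 5 unchanged. It does change which tissue a value in one of them belongs to, so the libraries are named by label throughout.

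Over the 13476 mRNAs compared, 967 were enriched in the heart library, which is 7.18%, and 907 were depleted, which is 6.73%. The median difference was -0.25 and the quartiles were -0.94 and 0.61. The heart library was the highest of the 6 for 1706 mRNAs (12.7%) and the lowest for 1555 (11.5%). Of the enriched mRNAs, 832 were highest in the heart, 314 were at least 4-fold and 156 at least 10-fold above the highest of the other libraries. The upper side reached further, with 103 mRNAs at a difference of 5 or more against 6 at -5 or less. The enriched mRNAs took 49.4% of all heart reads (95% Wilson interval 49.35 to 49.42) and the depleted 1.85% (1.84 to 1.86). These intervals cover counting error only, as reads without molecular identifiers are not independent molecules. The median density in the heart was 50.2 RPKM for enriched, 1.27 RPKM for depleted and 5.99 RPKM for all mRNAs compared. Against the library labelled lung alone, the other one whose markers match its label, 1635 mRNAs were enriched and 2140 depleted, and 742 and 479 of these were among the 967 and 907. Leaving out 1 of the 5 libraries at a time gave between 886 and 1110 enriched and between 847 and 1083 depleted mRNAs.

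**Figure D1:**
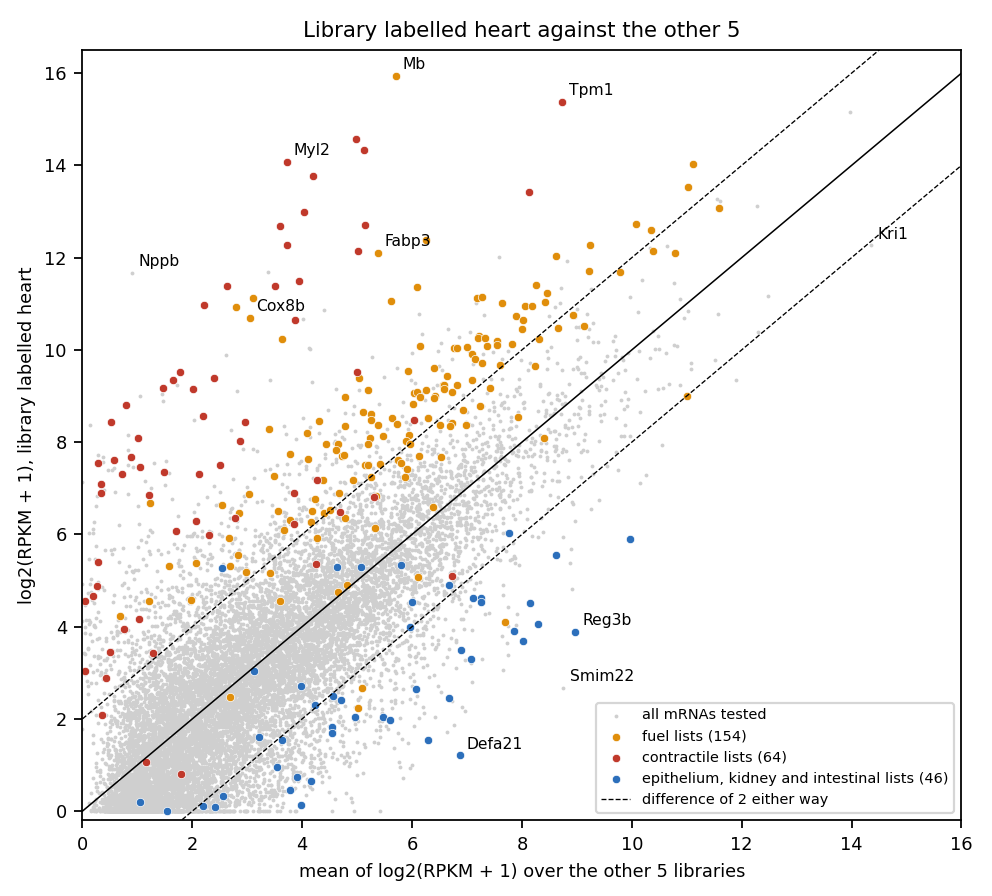
Ribosome density of the 13476 mRNAs compared, as log2(RPKM + 1) in the library labelled heart (vertical axis) against the mean of log2(RPKM + 1) over the other 5 libraries (horizontal axis). Each point is 1 mRNA, the solid line marks equal values and the dashed lines a difference of 2 either way; members of the contractile and fuel lists lie mostly above the upper line, and those of the epithelial lists mostly below the diagonal.

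The gene lists were drawn up with earlier results of these data known, so membership in them is a description only. Of the 20 mRNAs with the largest differences, 18 were members of the gene lists used here and 13 of the contractile lists, which include calcium handling. The others were the secreted peptides Nppb and Nppa, myoglobin (Mb), the creatine kinases Ckm and Ckmt2, and Dhrs7c and Lsmem1. The first was Nppb, the precursor of the natriuretic peptide BNP that cardiomyocytes secrete into the blood, with 3262 RPKM in the heart and 0, 4.28, 1.45, 0.713 and 0 RPKM in the others and a difference of 10.78. It rested on 9689 reads in the heart library and on 7 or fewer in each of the others. Next came Myl2 (10.36), Mb (10.24), Tnni3 (9.59), Myl3 (9.56), Tnnt2 (9.21) and Myh6 (9.09). The smallest of the 20 was 7.75, for Pln. The heart values of the 20 ran from 332 to 62856 RPKM, with at least 940 reads each, and for each of the 20 the heart library was the highest. The highest of the other libraries was that labelled colon for 10 of the 20 and that labelled lung for 8. Dhrs7c, an enzyme of the sarcoplasmic reticulum, and Lsmem1, a small membrane protein, were the 2 outside the lists. Dhrs7c had 332 RPKM in the heart and 0.101, 0.476, 0, 0 and 0 RPKM in the others. Lsmem1 had 508 RPKM in the heart and 0, 1.16, 0.687, 0 and 9.54 RPKM in the others.

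**Figure D2:**
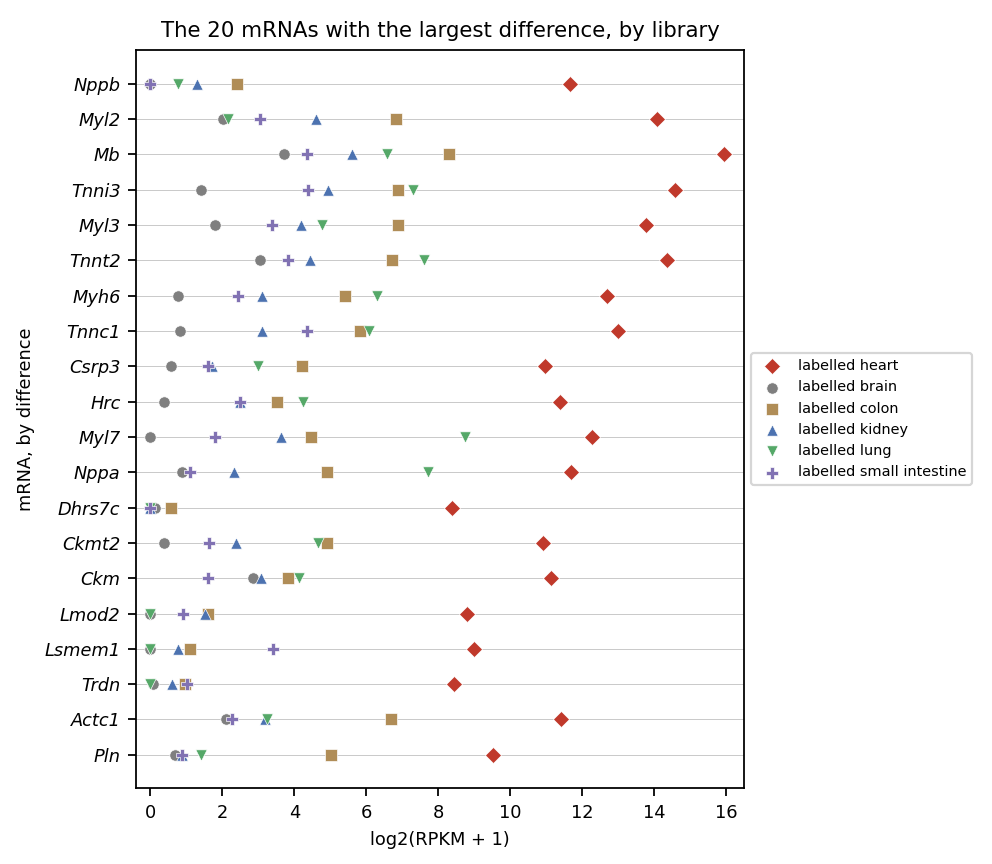
The 20 mRNAs with the largest difference, from the top down, with log2(RPKM + 1) in each library on the horizontal axis. Each symbol is 1 library; the red diamonds of the library labelled heart lie to the right of all others in every row, and the nearest others are Myl7 (426 RPKM) and Nppa (207 RPKM) in the library labelled lung.

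By density rather than difference, the heart library was led by Mb with 62856 RPKM, 2.9% of its reads. Tpm1, the tropomyosin that runs along the thin filament, followed with 42604 RPKM in the heart and 804, 265, 807, 426 and 185 RPKM in the others. It took 4.17% of the heart reads, the largest share of any of the 10 mRNAs of highest density. Then came mt-Atp6, an ATP synthase subunit made inside the mitochondrion, Tnni3, Tnnt2, Myl2, Mdh1, Myl3, Cox4i1 and Atp2a2. Together these 10 took 20.6% of the heart reads. The same count for the 10 highest of each other library ran from 8.23% (labelled lung) to 31% (labelled kidney).

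All 11 mRNAs of the thick filament list were enriched, with a median difference of 7.27, against -0.25 over all mRNAs compared. Myl3, the ventricular essential light chain, had 13906 RPKM in the heart and 2.46, 117, 17.2, 26 and 9.4 RPKM in the others. The atrial light chains were high as well. Myl7 had 4983 RPKM in the heart and 0, 21.1, 11.3, 426 and 2.49 RPKM in the others and Myl4 4547 RPKM in the heart and 5.36, 13.8, 5.47, 527 and 113 RPKM in the others. In both, the library labelled lung came second and held more than in Myl2 and Myl3, of which it had 3.43 and 26 RPKM. Mybpc3, cardiac myosin binding protein C, had 577 RPKM in the heart and at most 8.45 in another library. The myosin chaperones Unc45b and Smyd1 had 187 and 175 RPKM, against at most 0.477 and 7.48. Myh7, the beta heavy chain of the fetal ventricle, stood at 17 RPKM from 809 reads, far under Myh6, and the library labelled lung had 9.58. The coding sequences of Myh6 and Myh7 are close, since 36.2% of the 28-nt windows of the Myh6 CDS also occur in that of Myh7. The Methods leave out multi-mapped reads, so a read from such a window counts for neither, and both densities may be underestimated.

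Of the 11 thin filament mRNAs, 10 were enriched (median 6.65). Tnni3, cardiac troponin I and the part of troponin that blocks contraction at rest, had 24269 RPKM in the heart and 1.63, 117, 29.4, 156 and 19.8 RPKM in the others. Tnnc1, the calcium-binding troponin C, had 8196 RPKM in the heart and 0.779, 55.6, 7.64, 67 and 19.2 RPKM in the others. The leiomodins Lmod2 and Lmod3, which lengthen thin filaments, had 445 and 119 RPKM in the heart and at most 2.02 and 1.43 RPKM elsewhere. Only Tnni1, the fetal and slow skeletal troponin I, was not enriched, with 1.09 RPKM from 5 reads in the heart and 15.5 RPKM in the library labelled kidney.

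The cardiac and skeletal alpha-actins needed a check of sequence, because they differ little. Actc1 had 2694 RPKM in the heart and 3.33, 103, 8.04, 8.46 and 3.82 RPKM in the others, and Acta1 76.9 RPKM in the heart and 26.2, 1.37, 3.5, 0.114 and 2.89 RPKM in the others. Their coding sequences, on chromosomes 2 and 8, are 86.3% identical over 1131 nt, and 21.3% of the aligned windows of 28 nt, about the length of a footprint, differ by 2 bases or fewer. The window from position 964 to 991 of the CDS is shown because it is the same in both, so that a read from it cannot be placed. That from 436 to 463 is shown because the genes differ there most, at 8 positions in capitals (GRCm39, GENCODE release 39 of the mouse).

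Actc1 and Acta1, 964 to 991: ctggctcccagcaccatgaagatcaaga
Actc1, 436 to 463: gcttcTggAAgAaccacAggcatTgtTC
Acta1, 436 to 463: gcttcCggCCgTaccacCggcatCgtGT

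Exact repeats of a window elsewhere in the coding sequences were few for Actc1, since 97.7% of its windows were found in it alone. In the heart library Actc1 made up 97.2% of the summed RPKM of both actins.

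Among the scaffold mRNAs of titin, Z-disc and M-band, 22 of 24 were enriched (median 5.05). Csrp3, a Z-disc protein linked to stretch sensing, had 1998 RPKM in the heart and 0.485, 17.5, 2.27, 6.89 and 2.02 RPKM in the others. Tcap, which caps titin at the Z-disc, had 2895 RPKM in the heart and 0.938, 39.9, 12.4, 66.1 and 10.7 RPKM in the others. Cryab, a small heat shock protein that protects desmin and titin, had 6684 RPKM in the heart and 13.6, 146, 13.1, 20.2 and 87.7 RPKM in the others. Actn2, the cross-linker of the Z-disc, had 651 RPKM against at most 7.28. Ttn itself, the giant spring of the sarcomere, had 41.2 RPKM in the heart and 0.112, 0.178, 0.273, 0.149 and 0.43 RPKM in the others, low per length but based on 35778 reads. Fbxo32, a ubiquitin ligase of muscle wasting, was not enriched, with 39.8 RPKM in the heart and 47.7 in the library labelled brain. Nor was Myh14, a non-muscle myosin, at 33.2 RPKM with a difference of -1.64.

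Of the 18 mRNAs for calcium handling, 14 were enriched (median 3.97). Atp2a2, the SERCA pump that returns calcium to the reticulum, had 11031 RPKM in the heart and 178, 287, 200.2, 175 and 943 RPKM in the others and took 3.46% of the heart reads. Ryr2, the release channel, had 163 RPKM in the heart and 0.221, 1.48, 1.3, 1.5 and 9.04 RPKM in the others. Hrc and Casq2, the calcium-binding proteins inside the reticulum, had 2658 and 1603 RPKM, and Trdn, which ties Casq2 to the channel, 347 RPKM. None of these 3 passed 21.7 RPKM in another library. Slc8a1, the sodium-calcium exchanger that expels calcium from the cell, differed less (2.44), with 356 RPKM in the heart, 160.5 in the library labelled colon and 150.4 in that labelled small intestine. The lowest of the list was Fkbp1b, a partner of Ryr2, with 2 reads in the heart and 40.4 RPKM in the library labelled small intestine.

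The pump has a pair of very short inhibitors, phospholamban (Pln) and sarcolipin (Sln). Their whole coding sequences without the stop codon are shown, with the start codon in capitals, because the shortness of both limits how many reads a given density yields. Pln lies on chromosome 10 and Sln on chromosome 9 of GRCm39, both on the plus strand.

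Pln: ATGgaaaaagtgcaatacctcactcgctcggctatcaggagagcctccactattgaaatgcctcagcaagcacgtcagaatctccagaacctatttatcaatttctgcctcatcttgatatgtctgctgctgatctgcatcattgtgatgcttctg
Sln: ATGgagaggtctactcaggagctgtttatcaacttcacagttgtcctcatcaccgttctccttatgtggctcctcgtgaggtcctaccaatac

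Pln, with 156 nt, had 736 RPKM in the heart and 0.603, 31.3, 0.845, 1.66 and 0.839 RPKM in the others, from 940 reads in the heart. Sln, with 93 nt, had 272 RPKM in the heart and 0, 4.77, 1.42, 0 and 1.41 RPKM in the others, from 207 reads, and 3 reads on it would give 3.94 RPKM in the heart library. Both were enriched, with differences of 7.75 and 7.08, and for both the second highest library was that labelled colon.

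Combined, the thick filament, thin filament, scaffold and calcium lists held 64 mRNAs that were compared. Of these, 57 were enriched (89.1%, beside 7.18% of all mRNAs compared), none was depleted and the median difference was 5.75. They took 21.8% of the heart reads (95% Wilson interval 21.79 to 21.85) and between 0.295% (labelled colon) and 0.512% (labelled brain) of the reads of the other libraries. Levels of these mRNAs in the other libraries were uneven. For the 43 with at least 100 RPKM in the heart, the level was taken as a percentage of that in the heart. Its median was lowest under the label brain (0.0336), followed by kidney (0.227), small intestine (0.339), colon (0.926) and lung (0.927). Single mRNAs reached far more. The highest level was 92.7% under brain, 46.7% under small intestine, 45.0% under colon, 38.2% under lung and 27.4% under kidney. The source of these levels was not tested.

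The mRNAs of the excitable membrane and of the cell junctions had smaller differences than those of the myofibril. Of 20 cardiac ion channel mRNAs, 12 were enriched (60%, beside 7.18% of all mRNAs compared, median 2.40). They became 3 with a pseudocount of 10, 3 against the highest of the other libraries and 7 with a mean of at least 50 reads per library. The list took 0.345% of the heart reads, less than the 0.596% in the library labelled small intestine and more than the at most 0.0817% in the other 4. Kcnj5, a subunit of the potassium channel opened by the vagus nerve, had 26.7 RPKM in the heart and 0.0748, 0, 1.26, 0 and 0.624 RPKM in the others. Kcnj2, which sets the resting potential, had 51.3 RPKM and at most 20.2 elsewhere. The pacemaker channels Hcn4 and Hcn2 were not enriched, with 1.83 and 5.99 RPKM in the heart and 2.32 and 24.6 RPKM in the library labelled small intestine. Chrm2, the muscarinic receptor through which the vagus slows the heart, had 66.9 RPKM in the heart and 8.95, 0.476, 14.1, 13 and 16.6 RPKM in the others, and its difference was 2.94. Of 15 intercalated disc mRNAs, 7 were enriched (46.7%, median 1.88). The 7 became 2 against the highest of the other libraries. They became 3 with a pseudocount of 10 and 3 with the log2 of the mean RPKM of the others. Popdc2, a cAMP-binding membrane protein, had 191 RPKM in the heart and 0.0845, 1.2, 3.44, 9.995 and 0.705 RPKM in the others. Gja1, the gap junction protein connexin 43, had 986 RPKM in the heart and 157, 33.3, 145, 413 and 548 RPKM in the others. The desmosomal Dsp was enriched (2.27) but reached 118 RPKM in the library labelled brain against 96.1 in the heart. Dsg2, Jup and Tjp1, which epithelia use too, had differences of 0.60, 0.63 and -0.45.

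Atrial and natriuretic genes were enriched in 7 of 9 (77.8%, beside 7.18% of all mRNAs compared, median 7.08). Nppa, the atrial natriuretic peptide, had 3306 RPKM in the heart and 0.825, 28.7, 4.05, 207 and 1.15 RPKM in the others. Bmp10, a growth factor made in the atria, had 168 RPKM in the heart and 0, 2.64, 0.104, 0.102 and 0.104 RPKM in the others. The atrial mRNAs Nppa, Myl7 and Myl4 thus stood beside the ventricular Myl2 and Myl3 in this library. Pam, which amidates peptides in atrial granules, had 483 RPKM in the heart and between 19.9 and 159 RPKM in the others.

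The next list joins factors that direct heart development with regulators of mitochondrial and fatty acid genes. Of its 20 mRNAs compared, 11 were enriched (55%, beside 7.18% of all mRNAs compared, median 2.16). They became 3 with a pseudocount of 10, 4 against the highest of the other libraries, 7 with a mean of at least 50 reads per library and 16 with a pseudocount of 0.1. Tbx20, a T-box factor needed in cardiomyocytes, had 97.1 RPKM in the heart and 0, 1.16, 0.198, 7.46 and 0.49 RPKM in the others. Nkx2-5, a homeobox factor of the cardiac lineage, had 31.9 RPKM from 249 reads, and in the others 0.698 RPKM in that labelled colon and no read elsewhere. The zinc finger factor Gata4 had 19.4 RPKM in the heart and 6.95, 0.502, 0.199, 3.32 and 0.0987 RPKM in the others, and Hand2, a factor of the right ventricle, 51.4 RPKM in the heart and 14.7, 0.341, 17.4, 0 and 0 RPKM in the others. Myocd, the coactivator of SRF in heart and smooth muscle, had 8.04 RPKM against at most 0.537. Tbx5, known for the atria and the left ventricle, was enriched (2.26) with 10.1 RPKM in the heart but had 26.5 RPKM in the library labelled lung. Mef2c had 7.74 RPKM in the heart and 50.1 in the library labelled small intestine, while Mef2a was enriched at 2.30. Ppargc1a, Ppara and Esrra, regulators of mitochondrial and fatty acid genes, were not enriched, with differences of 1.87, 1.70 and 1.68.

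Motifs of some of these factors were looked for in the 250 bases upstream of the start of each mRNA, on both strands. M-CAT, which TEAD factors bind, was searched as CATTCC. The site of the zinc finger factors Gata4 and Gata6 was searched as AGATAA. Estrogen-related receptors, which act on genes of mitochondria, bind the element AAGGTCA. The core promoter box was searched as TATAAA, and the MEF2 site and the CArG box of SRF by their usual patterns. M-CAT was found in 13 of 64 contractile mRNAs (20.3%), in 13.7% of the enriched, 12.8% of the depleted and 11.9% of all upstream regions. The CArG box was found in 4 of 64 contractile mRNAs (6.25%), 2.19% of the enriched, 1.10% of the depleted and 1.23% of all. The MEF2 site was found in 3 of 64 (4.69%), 1.77% of the enriched, 0.331% of the depleted and 0.493% of all. The remaining motifs were found more often in the regions of depleted than of enriched mRNAs. AAGGTCA was found in 5.88% of the fuel mRNAs, 4.37% of the enriched, 4.86% of the depleted and 3.37% of all. AGATAA was found in 7.91% of the enriched, 9.49% of the depleted and 7.78% of all, and TATAAA in 9.16%, 11.6% and 8.30%. Among the 20 mRNAs of largest difference, Myl3 and Myl7 were the only ones with more than 1 kind of motif, an M-CAT and a CArG box each, and so their regions are shown, from 250 bases before the start to the last base before it, with both motifs in capitals. A match is a description of the letters, and binding was not measured.

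Myl3, GRCm39 chr9:110592459-110592708, plus strand: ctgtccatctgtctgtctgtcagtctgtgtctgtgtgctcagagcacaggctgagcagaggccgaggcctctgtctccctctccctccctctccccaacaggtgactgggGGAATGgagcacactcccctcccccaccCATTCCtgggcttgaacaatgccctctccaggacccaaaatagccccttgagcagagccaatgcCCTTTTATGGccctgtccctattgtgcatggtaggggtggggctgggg
Myl7, GRCm39 chr11:5848793-5849042, minus strand: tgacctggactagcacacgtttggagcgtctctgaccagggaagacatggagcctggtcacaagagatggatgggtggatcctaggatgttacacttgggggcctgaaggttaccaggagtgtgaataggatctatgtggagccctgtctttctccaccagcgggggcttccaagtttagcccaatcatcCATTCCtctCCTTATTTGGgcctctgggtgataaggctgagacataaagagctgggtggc

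Counted back from the start, the CArG box lies at -48 to -39 in Myl3 and at -51 to -42 in Myl7. The M-CAT elements of Myl3 lie at -140 to -135 on the opposite strand and at -112 to -107, and that of Myl7 at -60 to -55.

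Genes for burning fuel formed the other large block of enriched mRNAs. The lists for fatty acids, the citric acid cycle, the nuclear respiratory chain, energy buffering, and ketone and branched-chain use held 154 mRNAs that were compared. Of these, 113 were enriched (73.4%) and 4 depleted (2.60%), beside 7.18% and 6.73% of all mRNAs compared, with a median difference of 2.64. They took 16.2% of the heart reads (16.17 to 16.22). In the other libraries the share ran from 1.65% (labelled kidney) to 5.99% (labelled colon). With the contractile and the listed mitochondrially encoded mRNAs added, 43.3% of all heart reads were covered, against 3.09% to 8.82% elsewhere.

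Fatty acid uptake and oxidation had 25 of 28 mRNAs enriched (median 3.25). Fabp3, which carries fatty acids through the cytosol of muscle, had 4421 RPKM in the heart and 1.89, 390.0, 11.6, 106 and 81.3 RPKM in the others. Lpl, the lipase that frees fatty acids from lipoproteins at the capillary wall, had 2131 RPKM in the heart and 12.7, 187, 45.3, 164 and 13.8 RPKM in the others. Cpt1b, the muscle form of the gate into the mitochondrion, had 102 RPKM in the heart and 0, 6.81, 0.114, 6.54 and 0.113 RPKM in the others. Cd36, a fatty acid transporter, was enriched (4.34) but was higher in the library labelled lung, with 901 RPKM against 667. The oxidation enzyme Acadl and the electron carrier Etfb had 1088 and 2256 RPKM and at most 166 and 354 in another library. Slc25a20, the carnitine carrier, was not enriched, with 1718 RPKM in the heart and 1757 in the library labelled colon. Acot2 had 292 RPKM in the heart and 303 in that labelled colon, but only 42.4% of its windows are unique and the value is uncertain.

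In the citric acid cycle, 16 of 19 were enriched (median 2.62). Idh2, the mitochondrial isocitrate dehydrogenase, had 2222 RPKM in the heart and 149, 633, 109, 183 and 32.2 RPKM in the others. The list also counts Mdh1, the malate dehydrogenase of the cytosol rather than of the mitochondrial cycle. Mdh1 was the seventh mRNA by density in the heart library, with 16865 RPKM in the heart and 2607, 6197, 904, 770.3 and 4663 RPKM in the others. Sdha, Suclg1 and Suclg2 were the 3 that were not enriched, with differences of 1.92, 1.54 and 1.37. Of the 80 nuclear-encoded mRNAs of the respiratory chain, 62 were enriched, and the heart library was the highest of the 6 for 76 (median 2.67). Those with the largest differences were subunits of cytochrome oxidase found in striated muscle. Cox8b had 1649.8 RPKM in the heart and 0, 57.1, 1.26, 129 and 1.25 RPKM in the others. Cox6a2 had 1202 RPKM in the heart and 1.29, 29, 4.53, 86.7 and 7.64 RPKM in the others. The counterpart Cox8a was the only depleted member, with 508 RPKM in the heart and between 949.9 and 7777 RPKM in the others. Cox5b had only 23.3% unique windows and is uncertain.

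Of the 13 mitochondrially encoded mRNAs, mt-Nd4, mt-Cytb and mt-Co3 were not listed in any library. The other 10 differed less, with 4 enriched (40%, beside 7.18% of all mRNAs compared) and a median of 1.68. The enriched ones were subunits of complex I, mt-Nd1 (3.93), mt-Nd3 (3.33), mt-Nd5 (2.64) and mt-Nd2 (2.11). mt-Nd1 had 970.2 RPKM in the heart and 32.5, 134, 84.6, 17.5 and 143 RPKM in the others. mt-Atp6 had 36338 RPKM in the heart and 18714, 16311, 30460.0, 8268 and 14382 RPKM in the others and a difference of 1.17, and mt-Atp8 one of 0.04. As a list these 10 took 5.31% of the heart reads and between 0.870% (labelled lung) and 3.50% (labelled kidney) of those of the others. They are made on mitochondrial ribosomes, which the RPKM does not set apart from cytosolic ones.

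Glycolysis and glucose uptake had 18 of 30 mRNAs enriched (60%, beside 7.18% of all mRNAs compared, median 2.49), led by muscle forms. Eno3 had 947 RPKM in the heart and 5.34, 7.5, 20.1, 3.97 and 0.502 RPKM in the others, Pgam2 1858 RPKM in the heart and 14.5, 212, 1.39, 45.2 and 10.2 RPKM in the others, and Pygm, the muscle glycogen phosphorylase, 1056 RPKM in the heart and 14, 9.67, 8.35, 37.8 and 26.7 RPKM in the others. Slc2a4, the insulin-responsive glucose transporter GLUT4, had 99.5 RPKM in the heart and 8.74, 10.6, 12.8, 0.0847 and 2.31 RPKM in the others. The widely used forms lay at the other end of the list, where Slc2a1, Pgam1 and Eno1 had differences of -1.61, -1.30 and -0.93. Gapdh is uncertain, since 17.1% of its windows are unique.

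Energy buffering had 7 of 15 enriched (46.7%) and 2 depleted (13.3%), beside 7.18% and 6.73% of all mRNAs compared. Ckm and Ckmt2, the muscle creatine kinases of cytosol and mitochondrion, had 2225 RPKM in the heart and 6.25, 13.2, 7.38, 16.6 and 2.06 RPKM in the others and 1938 RPKM in the heart and 0.299, 29, 4.2, 24.3 and 2.08 RPKM in the others. Ckmt1, the mitochondrial form of other tissues, was depleted (-3.60), with 16.1 RPKM in the heart and 986 in the library labelled brain. So was Gatm (-2.41), the enzyme that starts creatine synthesis, with 5.39 RPKM in the heart and 1598 in the library labelled colon. The mRNA of the creatine importer, Slc6a8, had a difference of 0.08. In ketone and branched-chain use 6 of 16 were enriched (37.5%) and 1 depleted (6.25%, near the 6.73% of all mRNAs compared). The 6 became 11 without the library labelled colon, 3 without that labelled kidney and 0 against the highest of the others. Oxct1, which commits ketone bodies to oxidation, had 835 RPKM in the heart and 124, 778, 91.3, 70.4 and 138 RPKM in the others, so that the library labelled colon came close to the heart. Bdh1, the depleted one, had 3.68 RPKM in the heart and 87.2 in that labelled colon.

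For 20 pairs of related genes, the share of the form typical of striated muscle in the summed RPKM of both was taken in each library. It was over 50% in the heart library for 19 pairs, over 90% for 10, and highest of the 6 libraries for 13. Ckm made up 98.6% of Ckm and Ckb in the heart and at most 25.9% elsewhere. Cox8b made up 76.4% of Cox8b and Cox8a, and at most 11.9% elsewhere. For Cpt1b over Cpt1a these shares were 60.5% and 18.2%. Eef1a2, the elongation factor form of muscle and neurons, made up 66.2% in the heart and 48.7% in the library labelled small intestine, but no more than 0.532% in the remaining ones. Cox7a1 was the exception, with 48% in the heart and 55.2% in the library labelled brain, there from 86 and 65 reads. For the sarcomere pairs the shares in the other libraries rest on few reads, for example 17 of Myl2 and none of Myl7 in the library labelled brain.

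**Figure D3:**
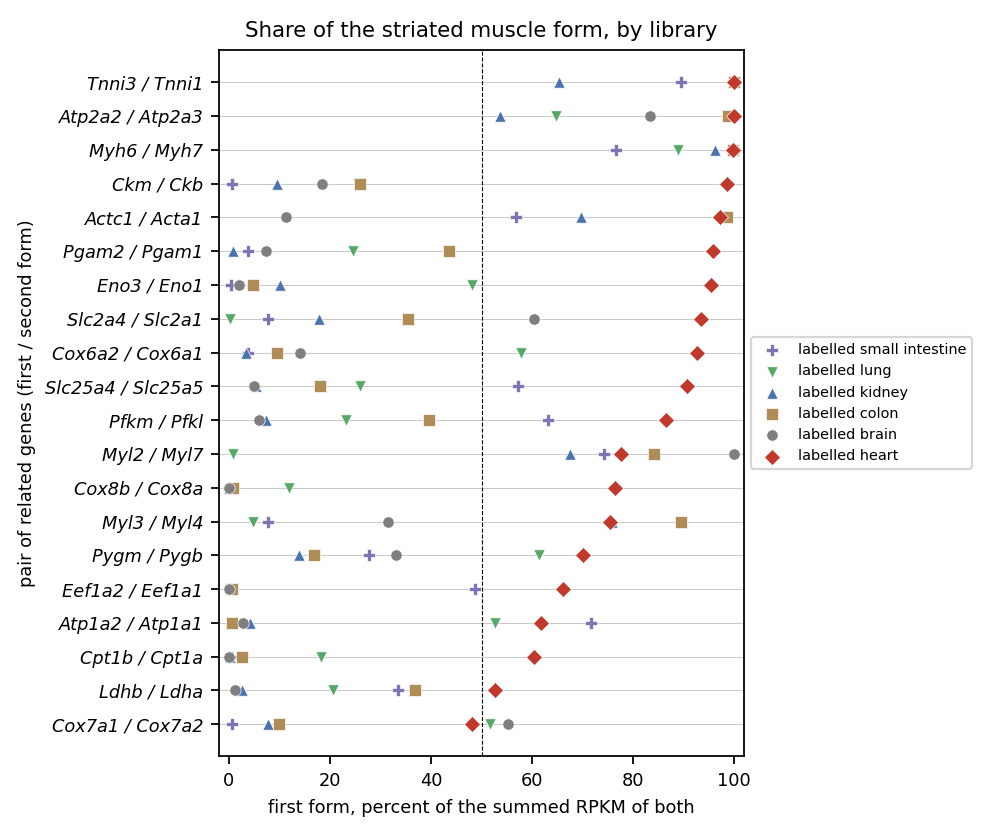
Share of the first-named form in the summed RPKM of each pair (horizontal axis, percent), with 1 row per pair and 1 symbol per library. The red diamonds of the library labelled heart lie right of the dashed line at 50% in 19 of 20 rows, and in 13 rows they lie right of all other symbols.

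The shares of reads place these groups side by side. Cytosolic ribosomal proteins took 1.18% of the heart reads and between 0.633% and 1.14% in the others. Their median difference was 0.58, and the heart library was the highest of the 6 for 26 of 73, beside 12.7% of all mRNAs compared. Of the 73, 2 were enriched (2.74%, beside 7.18% of all mRNAs compared) and none depleted. The 2 became 5 with a pseudocount of 0.1 and 1 with a pseudocount of 10. The secretory pathway list, which covers protein entry into the endoplasmic reticulum, folding and export, took 0.818% of the heart reads and between 1.34% and 1.9% in the others. Its median difference was -0.68. The heart library was the lowest of the 6 for 14 of 31, beside 11.5% of all mRNAs compared. Pdia4, a disulfide isomerase, was the depleted one (-2.33), 3.23% of the list beside 6.73% of all mRNAs compared. The number depleted became 4 with the median of the others, and 2 were enriched with a pseudocount of 0.1.

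**Figure D4:**
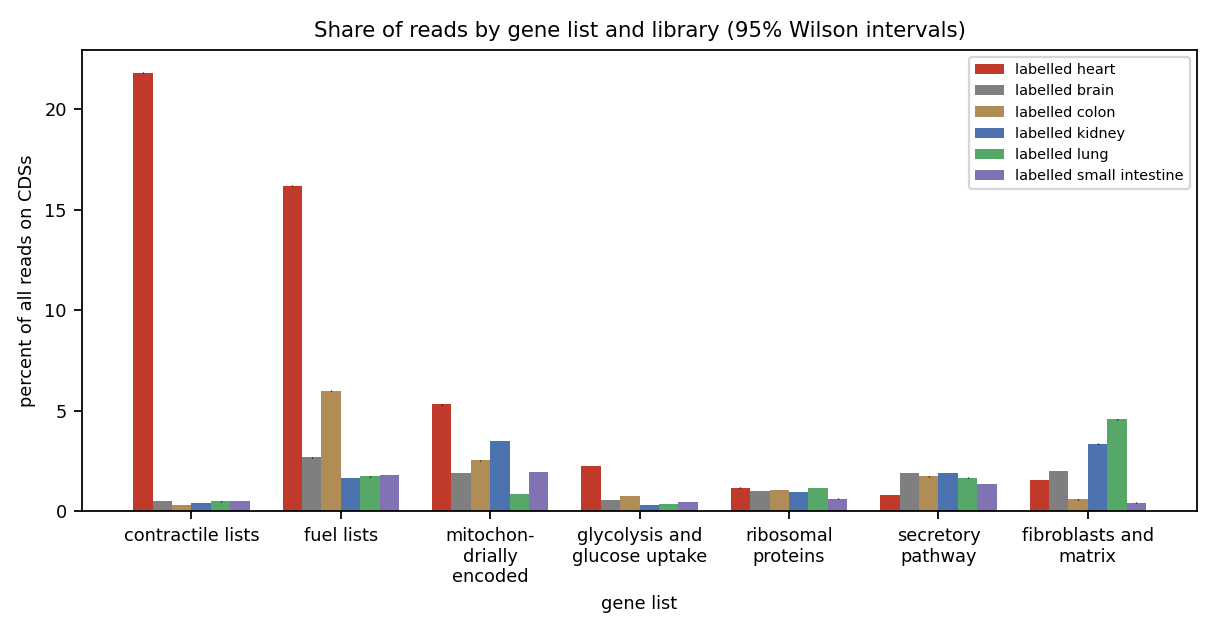
Share of all reads on CDSs (vertical axis, percent) taken by each gene list, with 1 bar per library and 95% Wilson intervals of counting error. In the library labelled heart the contractile lists took 21.8% and the fuel lists 16.2%, above every other library, while the secretory pathway had its lowest bar there.

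Markers of the other cells of the heart wall were present at lower density. In a tissue that was not sorted, fewer cells of a type and less mRNA per cell cannot be told apart. Of 19 endothelial mRNAs, 3 were enriched (15.8%, beside 7.18% of all mRNAs compared), namely Fabp4, Gpihbp1 and Vwf, with a median of 0.93. The 3 became 0 with the log2 of the mean RPKM of the others and against the highest of them, 8 with the median of the others, 8 without the library labelled lung and 1 without that labelled small intestine. Gpihbp1 and Vwf were higher in the library labelled lung, with 173 and 160.1 RPKM, than in the heart, with 30.9 and 45.6 RPKM. Fabp4 had 291 RPKM in the heart and 1.19, 104, 22.3, 274 and 0.991 RPKM in the others. Cdh5, the endothelial cadherin, had 252 RPKM in the heart and 45.1, 69.7, 33.2, 1139 and 15.2 RPKM in the others. The list took 0.207% of the heart reads, less than the 0.934% in the library labelled lung and more than in the other 4, of which that labelled colon had 0.136%. The mural cell marker Rgs5, of pericytes, was enriched (4.53) with 111 RPKM in the heart and 18.9, 0.409, 17.5, 0 and 4.1 RPKM in the others, and so was Smtn (2.84). The smooth muscle genes Myh11, Tagln and Cnn1 were not, with 25.9, 207 and 13.2 RPKM in the heart and 1095, 1831 and 351 RPKM in the library labelled kidney. Of the 13 smooth muscle and pericyte mRNAs, 2 were enriched (15.4%). Fibroblast and matrix mRNAs had a median of 0.27 and took 1.54% of the heart reads, between the extremes of 0.434% and 4.57%. Lum was enriched (3.43) and Fn1, fibronectin, depleted (-2.01), with 31 RPKM in the heart and 627 in the library labelled lung. Each was 5.56% of the list, beside 7.18% enriched and 6.73% depleted of all mRNAs compared. Col1a1 and Col3a1, the fibrillar collagens, had differences of -0.38 and 0.30. Of 15 macrophage mRNAs, 1 was enriched (6.67%, beside 7.18% of all mRNAs compared), Cd163 at 2.02, and none was with a pseudocount of 10, with the log2 of the mean RPKM of the others or without the library labelled colon or that labelled small intestine. Csf1r had a difference of -0.01. Among the lymphocyte markers, Lck, Ms4a1 and Cd3e had no read in the heart library, Cd4 was depleted (-2.31) and Jchain enriched (2.04) from 63 reads, at 16.1 RPKM against 20.1 RPKM in the library labelled brain. No lymphocyte mRNA was enriched with a pseudocount of 10, with a mean of at least 50 reads per library, with the median or the log2 of the mean RPKM of the others, or without the library labelled colon or that labelled lung. Cd4 and Jchain were each 14.3% of the 7 lymphocyte mRNAs compared. None of 5 mesothelial mRNAs was called. In the fat cell list 1 of 5 was enriched (20%), Ucp1 at 2.51 from 116 reads. It had 15.4 RPKM against 34.3 RPKM in the library labelled lung, and Adipoq had a difference of -0.22. Of the red cell list, 1 of 7 was enriched (14.3%), Alas2 at 2.13. It had 27.3 RPKM against 75.4 RPKM in the library labelled lung and 42.1 in that labelled colon. The globin mRNAs had at most 13.6 RPKM in the heart, with windows that are mostly shared among them.

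Fast skeletal muscle genes were checked because muscle may be collected with an organ. Of 10 compared, 4 were enriched (40%, beside 7.18% of all mRNAs compared). The 4 became 1 with a pseudocount of 10 and 2 with a mean of at least 50 reads per library. Myl1 had 554 RPKM in the heart and 21, 0.394, 4.21, 85.3 and 0.232 RPKM in the others. Casq1, Tnni2 and Myh1 had 21.8, 13 and 8.18 RPKM in the heart. Mylpf and Myh4, which define fast fibres, had 1.21 and 0.042 RPKM from 5 and 2 reads, and Tnnc2 and Actn3 had none. The whole list took 0.0407% of the heart reads, against 21.8% for the contractile lists of the heart. In summed density it had 603 RPKM in the heart, of which Myl1 had 554.

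The lists with the most depleted members were those of epithelia. Of 14 epithelial mRNAs 11 were depleted (median -2.68), of 11 of the kidney tubule 9 (median -2.84) and of 21 of the intestinal epithelium 12 (median -2.23), beside 6.73% of all mRNAs compared. Cdh1, the epithelial cadherin, had 10.2 RPKM in the heart and 373, 75.6, 624, 170.1 and 6.91 RPKM in the others, and Epcam 23.5 RPKM in the heart and 1130.0, 61.8, 1175, 27 and 19.9 RPKM in the others. In both, the heart had a density about as low as the library labelled small intestine, in which the brain markers were highest. Umod, uromodulin of the nephron, had 8.82 RPKM in the heart and 449, 16438, 10.9, 56.7 and 8.01 RPKM in the others, and Apoa1, an apolipoprotein of enterocytes and liver, 15.6 RPKM in the heart and 30285, 108, 159, 22.2 and 251 RPKM in the others. Klk1 was depleted too (-4.07), but only 45.8% of its windows are unique. The exception on the other side was Car1, a carbonic anhydrase of colon and red cells, which was enriched (2.72) with 37.5 RPKM in the heart and 434 in the library labelled kidney. The 9 of the kidney tubule became 3 without the library labelled colon and 3 with a pseudocount of 10. Of 16 brain mRNAs, 6 were depleted (median -1.62), and the number turned on the library labelled small intestine. It was 0 without that library, 0 with the median of the others and 0 with a pseudocount of 10, 10 without the library labelled colon and 16 with the log2 of the mean RPKM of the others. Syt1, a sensor of synaptic vesicle release, had 2.32 RPKM in the heart and 11.1, 0.703, 23.6, 5.43 and 2332 RPKM in the others. Of 10 mRNAs of the lung epithelium, 1 was depleted (10%, beside 6.73% of all mRNAs compared), Napsa (-3.54), and the median was 0.34. The log2 of the mean RPKM of the others gave 9 depleted, and without the library labelled lung 5 were enriched. Surfactant protein Sftpc had 200.1 RPKM in the heart and 11.7, 119.6, 24.8, 39332 and 3.84 RPKM in the others, so the heart held less than 1% of the level in the library labelled lung and more than the remaining ones. For these lists the heart level as a percentage of the highest library had medians of 0.0581 (kidney tubule), 0.265 (brain), 0.596 (intestinal), 0.651 (lung epithelium) and 1.70 (epithelium). Whether these low levels come from cells of the heart was not tested.

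**Figure D5:**
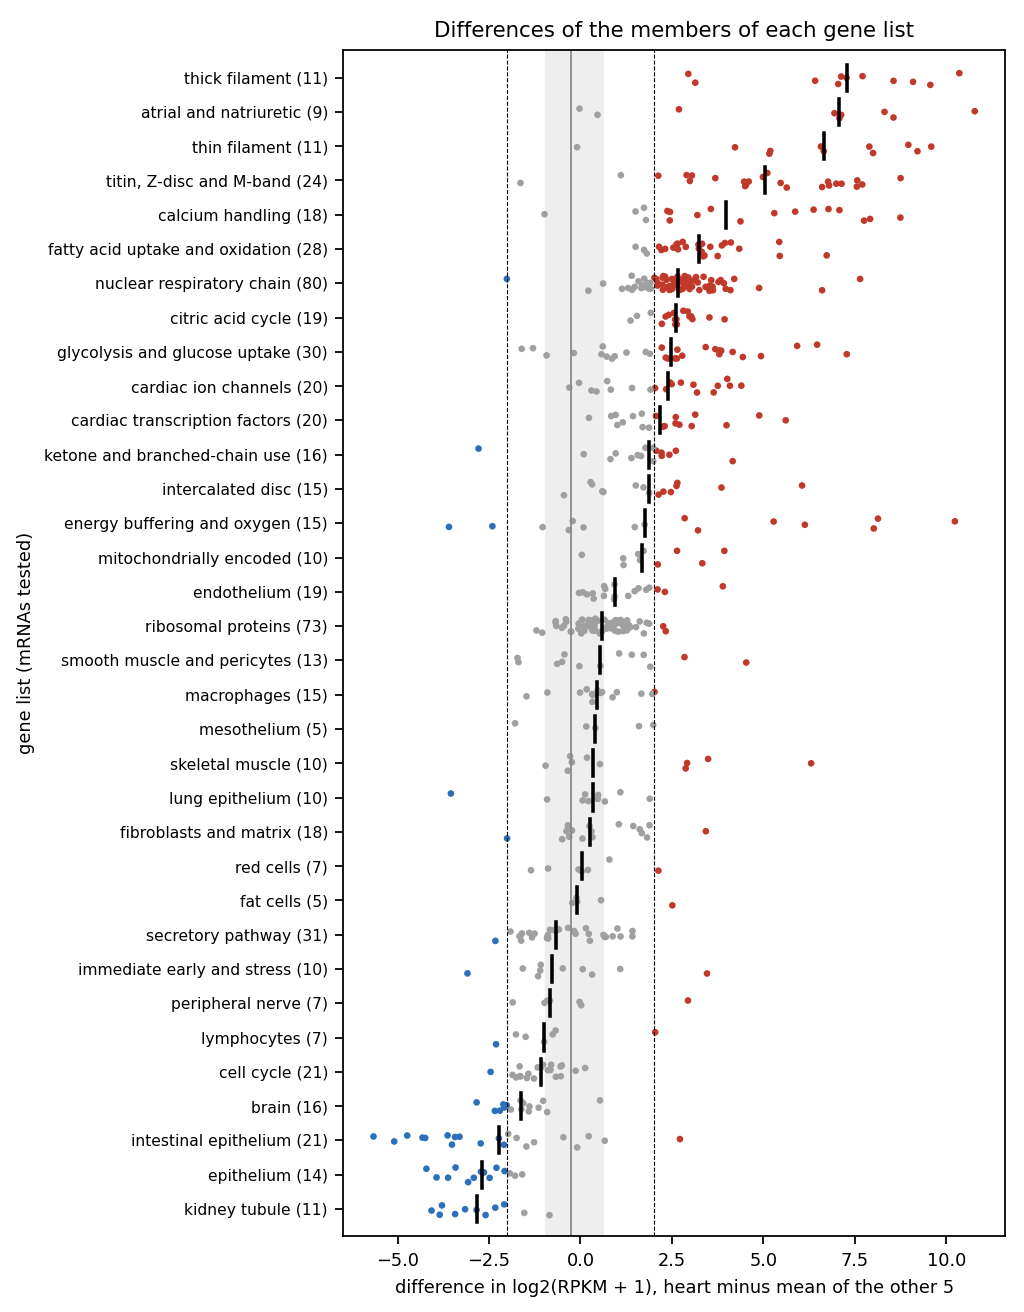
Difference in log2(RPKM + 1), heart library minus the mean of the other 5, for every mRNA compared of each gene list (horizontal axis), ordered by the list median (black bar). Red points are enriched and blue points depleted mRNAs, the dashed lines mark a difference of 2 either way, and the grey band spans the quartiles of all mRNAs, from -0.94 to 0.61.

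The 20 lowest differences ran from -6.08 to -4.46. Their highest library was that labelled brain for 11, colon for 5, kidney for 2 and small intestine for 2, and in the heart none had more than 59 reads. Smim22, a small membrane protein of epithelia, came first, with 5.37 RPKM in the heart and 3432, 206, 1151, 295 and 61.3 RPKM in the others. Apoc3, an apolipoprotein of triglyceride-rich particles, had no read in the heart, where 3 reads would give 0.892 RPKM, and in the others 506, 129, 47.8, 0.944 and 22 RPKM. Slc3a1, which carries cystine and dibasic amino acids across the brush border, had 0.654 RPKM in the heart and 345, 779.8, 50.4, 5.1 and 6.3 RPKM in the others. Reg3b, an antimicrobial lectin of the gut, had 13.7 RPKM in the heart and 26263, 18.6, 7212, 26.6 and 312 RPKM in the others. Fabp6 and Fabp1, the ileal and liver fatty acid binding proteins, had differences of -4.80 and -4.74, opposite in sign to Fabp3. Gjb2, connexin 26 of epithelia, had -5.03, opposite to Gja1. Crb3 and Hoxb9 had no read in the heart library, for which 3 reads would give 1.04 and 0.489 RPKM. Defa21, at -5.66, belongs to a family of near-identical defensins, has 22.2% unique windows and is uncertain. In all, 83 of the depleted mRNAs had no read in the heart and 122 had 1 to 3, so that their order is limited by counting error.

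Cell cycle mRNAs mark dividing cells, and immediate early mRNAs appear within minutes of a stimulus. Of 21 cell cycle mRNAs, none was enriched and Ccnb1, the mitotic cyclin, was depleted (-2.46), with a list median of -1.08. That is 4.76% depleted, beside 6.73% of all mRNAs compared. The number depleted became 4 with a pseudocount of 0.1, 4 with the median of the others and 0 with a pseudocount of 10. Top2a, which untangles replicated DNA, had 1.87 RPKM in the heart and 39.9, 1.84, 24.1, 15.8 and 1.48 RPKM in the others. Mki67, the proliferation antigen Ki-67, had 0.731 RPKM in the heart and 13.7, 3.84, 6.42, 2.35 and 0.412 RPKM in the others. The list took 0.0182% of the heart reads, above the 0.011% of the library labelled small intestine and below the others, which ranged from 0.0449% to 0.125%. Of 10 immediate early and stress mRNAs, 1 was depleted and 1 enriched (10% each, beside 6.73% and 7.18% of all mRNAs compared). Fos was depleted (-3.09), with 2.68 RPKM in the heart and 94.1, 3.5, 67.2, 30.2 and 32.1 RPKM in the others. Hspb1, a small heat shock protein, was enriched (3.46), with 1740.3 RPKM in the heart and 133, 132, 320.3, 861 and 19.2 RPKM in the others.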

How the data were processed

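The library labelled heart and those of the other 5 tissues were used, with 1 library each. For every library the authors deposited RPKM values of protein-coding mRNAs. The Methods, written for macrophage libraries and taken to hold here, describe trimming with Cutadapt, removal of reads shorter than 15 nt, STAR alignment to 1 mRNA per gene (longest CDS, GRCm39), exclusion of multi-mapped reads and of reads with over 2 mismatches, P-site prediction by random forest and counting on the CDS. Tool versions are not given in the sources used here. Because RPKM is relative to the total on CDSs, a few abundant mRNAs lower the values of all others in that library.

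RPKM times CDS length gave whole reads (tolerance 0.01) for 100% of values. mRNAs with a mean of at least 10 recovered reads per library were compared on log2(RPKM + 1), with a pseudocount of 1. On this scale a difference understates the change of mRNAs of low density. A difference of 2 in either direction was called. With 1 library per tissue there was no test and no p-value. Shares of reads have 95% Wilson intervals, and mRNAs without reads a floor of 3 reads, which in the heart library is 0.367 RPKM for a CDS of 1000 nt. Depth was between 4504853 and 10635031 reads per library.

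The members and the 35 gene lists, with 660 of their 667 genes in the files, were chosen with earlier results of these data known. The text names the 10 mRNAs of highest RPKM in the heart library, the 20 with the largest difference in each direction, members of the lists (those of highest density, called, or at 0), the 20 pairs of related genes and Kri1, and calls uncertain those whose CDS is mostly shared with another. Some members of the lists are counted but not reported here by name. CDSs, coordinates and upstream regions were read from GRCm39 with GENCODE release M39, where 18178 mRNAs (98.6%) had a CDS of the same length. Alternatives covered pseudocount, filter, summary of the other libraries, scaling, depth, threshold and the libraries compared against. Recovery of reads and the calls were tested on simulated data. Tables were computed in Python 3.11.15 (pandas 2.3.3, scipy 1.17.1, numpy 2.4.6) and figures drawn with matplotlib 3.10.9.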

Additional observations from a re-analysis of the deposited data

How the results depend on the processing

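No paired analysis was possible because each tissue has 1 library and no test was made. The counts of 967 enriched and 907 depleted mRNAs moved by over 1.5 times, in either count, under 7 of 18 alternatives, and whether the counts keep to one side was set largely by how the other libraries were summarised. They were 1755 and 1610 with a pseudocount of 0.1, and 380 and 194 with 10. With the log2 of the mean RPKM of the others they were 630 and 2547, and against the highest of the others 287 and 5605. A difference of 1 for a call gave 2360 and 3134, a difference of 3 gave 426 and 233, and the library labelled lung alone gave 1635 and 2140. The share of enriched among all calls, 51.6%, was 66.2%, 19.8%, 4.87% and 64.6% with a pseudocount of 10, the log2 of the mean RPKM, the highest of the others and a difference of 3. Size factors by the median of ratios moved the median difference by 0.17 and gave 1134 and 767. The 57 enriched contractile mRNAs stayed within 1.5 times under every alternative, while the 113 enriched fuel mRNAs became 36 against the highest of the others and 49 with a difference of 3. Several shorter lists moved by more, and for part of them the values stand beside their counts in the report. A count printed without such values may have moved too. The 11 depleted epithelial mRNAs became 7 with a pseudocount of 10. The 1 depleted mRNA of the nuclear respiratory chain became 0 with that pseudocount. With a pseudocount of 0.1, 2 mesothelial mRNAs were enriched. The contractile share of the heart reads was 22.1% without Kri1 in the total and 23.0% without the mitochondrially encoded mRNAs. Against the library labelled lung alone, the differences of Defa21, Clec2h and Tmigd1 turned to 0.26, 0.69 and 1.07. The cause of these moves beyond the construction of each alternative was not tested. Depth limits the depleted side, where mRNAs with 0 to 3 reads in the heart library have no order.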

Other observations

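The density of an enriched mRNA in the other libraries varied widely. Of the 967 enriched mRNAs, 313 (32.4%) had under 10 RPKM in all of the other 5 libraries, while 153 (15.8%) had 10 RPKM or more in each of them. The highest of the other libraries was that labelled colon for 338, small intestine for 266, lung for 192, kidney for 104 and brain for 67. Of the 907 depleted mRNAs, 187 (20.6%) had 10 RPKM or more in all 5 others, and the highest library was that labelled brain for 314 and colon for 228.

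Enriched mRNAs had shorter coding sequences, with a median of 1065 nt against 1410 nt for the depleted and 1479 nt for all mRNAs compared. The median share of codons ending in G or C was 62.1% for the enriched, 63.7% for the depleted and 61.1% for all.

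Kri1, a factor of ribosome assembly, took 1.04% of the heart reads. Its share was lower under the label lung (0.400%) and higher under brain (2.01%), colon (6.79%), small intestine (14.1%) and kidney (22.1%). Leaving Kri1 and the mitochondrially encoded mRNAs out of the totals gave 934 enriched and 1008 depleted mRNAs.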
